A study of Mus musculus with 2 samples.

Results

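The gene set described here holds 31 genes of glucose use and of the response to low oxygen, chosen by name from the 33696 genes counted in each library. It covers 3 glucose transporters, 19 enzymes that lead from glucose to lactate or set the rate of that path, 2 lactate transporters, 3 pyruvate dehydrogenase kinases and 4 genes of the oxygen response. Raw counts of unique molecular identifiers (UMIs) were summed over the cells of each type in each library and divided by the summed total, which gives its count per 1000000 UMIs (CPM). The members accounted for 318418 UMIs in the library labelled KO and for 122848 UMIs in the library labelled WT. None of them served to sort the cells into types.

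Glycolysis splits glucose into pyruvate in the cytosol and yields ATP without oxygen. Most of its steps can be run by several enzyme isoforms that are encoded by separate genes and used by different tissues. Lactate dehydrogenase turns pyruvate into lactate, monocarboxylate transporters carry lactate across the cell membrane, and pyruvate dehydrogenase kinases hold pyruvate back from the mitochondria. When oxygen falls, prolyl hydroxylases of the EGLN family stop marking HIF-1 alpha for destruction, and this factor then raises transcription of many glycolytic genes from sites with the core letters ACGTG or GCGTG. Fast skeletal muscle is a classic glycolytic tissue, whereas the cells between its fibres have been described less fully.

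The samples are 1 library labelled KO and 1 labelled WT, both of fresh cells from the tibialis anterior, a fast muscle of the lower leg. Muscles of male mice were used, and for either library 10 of them, taken from 5 animals, went into a single suspension. Both groups shared the digestion for 1 h at 37 °C, the lysis of red cells and the sort for living cells, and both carry the tag ND, which the labels do not spell out. The labels name the genotypes only as KO and WT and give no deleted exon, no Cre driver and no age. With 1 library per genotype no test between genotypes could be made, the difference has no replicate check, and every interval given below is a 95% interval for counting error alone.

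The library labelled KO held 19531 barcodes with 101570863 UMIs, and the library labelled WT held 11360 barcodes with 38014703 UMIs. After filtering, 17891 and 10181 barcodes remained, with medians of 4208 and 2939 UMIs, and 61 barcode sequences occurred in both libraries. The labels call the cells fibro-adipogenic progenitors (FAPs), the resident mesenchymal cells of muscle, but the suspension held 12 types with at least 50 cells in each library. Each type had all 8 of its markers at 20 CPM or more in both libraries. FAP-like cells numbered 932 in the KO-labelled and 1392 in the WT-labelled library, and endothelial-like cells 7932 and 3387. The smallest types were perineurial-like cells, with 50 and 65 cells, and neutrophil-like cells, with 226 and 54. Myofibre-like cells were barcodes rich in UMIs of myofibre markers, 714 and 467 of them. Whether each held a cell, a fragment or free RNA was not tested. A filter at 1000 genes and 5% mitochondrial UMIs kept 258 and 99 of these barcodes, so their shares are shares of barcodes. A cluster of 2867 shallow barcodes, with a median of 1348 UMIs, was found in the KO-labelled library alone, and it supplied 2.40% of the UMIs of endothelial-like cells there and at most 0.530% in any other type. Scrublet flagged 681 barcodes (3.49%) and 95 barcodes (0.836%) as doublets before typing, fewer than the 7.81% and 4.54% that the barcode numbers predict, so doublets may remain. Igf1, the gene named in the series title, was at 421 CPM in FAP-like cells of the KO-labelled and 381 CPM in those of the WT-labelled library, at 83.9 and 242 CPM in tenocyte-like cells, and at 15.8 and 101 CPM in macrophage-like cells. It was thus not lower in the FAP-like cells of the KO-labelled library, although it was in those other types. Neither the deleted stretch nor the cells that lost it are given in the labels, and a 3' tag outside that stretch checks nothing, so the libraries are named by their labels throughout.

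**Figure D1:**
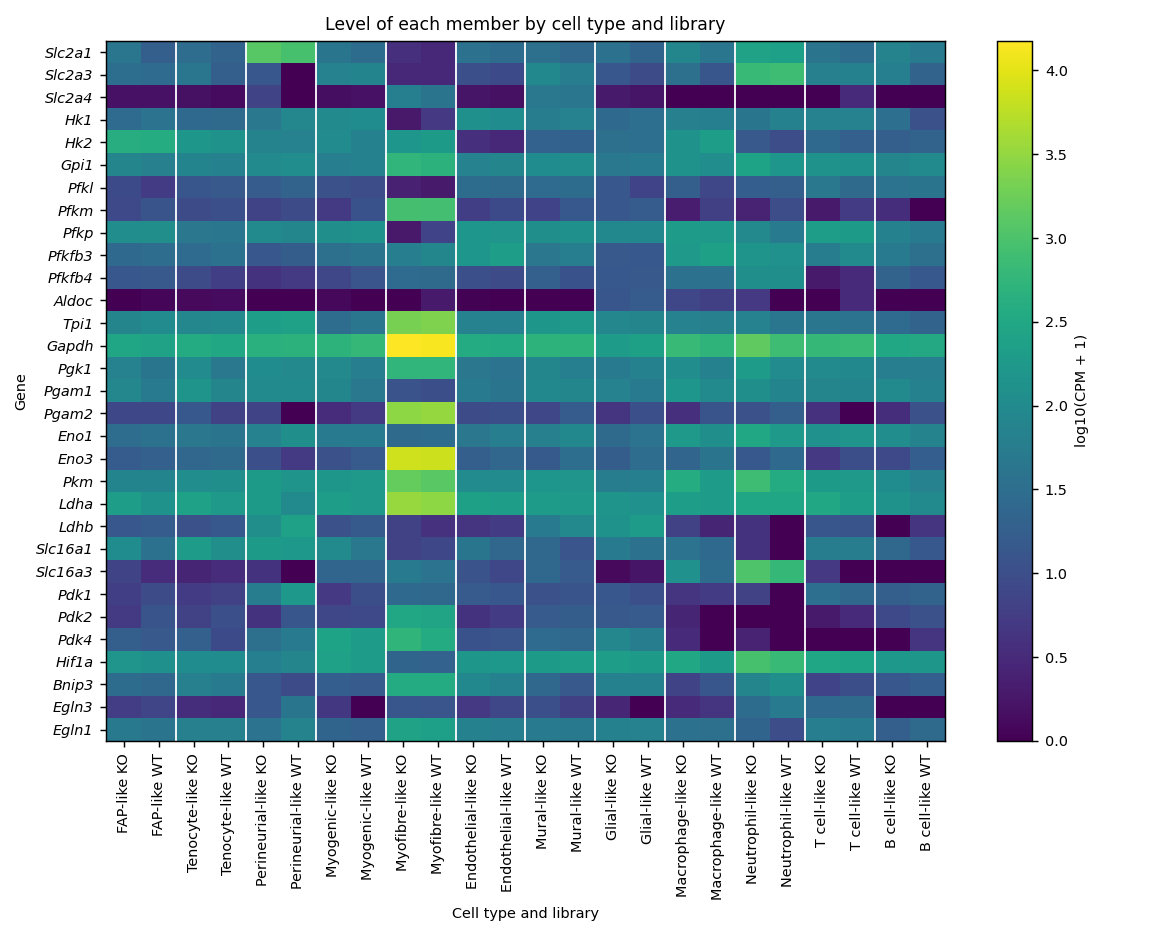
Level of each of the 31 members (rows) in 12 cell types, with the KO-labelled library left of the WT-labelled library in each pair of columns; colour is log10 of CPM + 1. Myofibre-like cells are highest for 9 of the 19 enzymes, with Gapdh at 15036.5 and 13894.5 CPM, while Slc2a1 peaks in perineurial-like cells and Slc16a3 in neutrophil-like cells.

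Levels were first compared among cell types, and 26 of the 31 members were highest in the same type in both libraries. Of these, 13 were highest in myofibre-like cells and 6 in neutrophil-like cells. A further 2, Slc2a1 and Pdk1, were highest in perineurial-like cells, and glial-like, endothelial-like, FAP-like, macrophage-like and T cell-like cells had 1 each. Ldhb, Pfkl, Pgam1, Slc16a1 and Slc2a4 had their highest level in different types in the 2 libraries. The same shares over all genes were not computed, so these counts describe the members and are not read as unusual. Aldoc, the aldolase isoform of brain, was the 1 member that stayed under 20 CPM in every type, and it was highest in glial-like cells, at 12.2 CPM (48 UMIs) in the KO-labelled and 15.3 CPM (21 UMIs) in the WT-labelled library.

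A member was counted as raised in a type when it was at least 4-fold above the median of the other 11 types in both libraries and at 20 CPM or more, a rule that 30 members and 10980 genes in all could meet. In myofibre-like cells 16 of the 30 were raised, against 7.13% of all genes. Neutrophil-like cells had 5 raised members (6.95% of all genes) and perineurial-like cells 4 (6.45%). The counts were 2 each in tenocyte-like (6.14%), mural-like (7.36%), glial-like (7.70%) and macrophage-like cells (6.94%), and 1 each in FAP-like (6.84%), myogenic-like (4.62%) and T cell-like cells (5.65%). Endothelial-like cells (7.51%) and B cell-like cells (5.58%) had none. Outside myofibre-like cells these counts are small beside 30 members, so the text below goes by gene rather than by count.

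The 3 glucose transporters were highest in different cell types. Slc2a1 encodes GLUT1, the transporter of basal uptake and of blood-tissue barriers, and it was at 1233 CPM (394 UMIs, 1114 to 1361) in perineurial-like cells of the KO-labelled library and at 929 CPM (227 UMIs, 812 to 1058) in those of the WT-labelled library. Perineurial cells form the sheath around nerve bundles. These levels were 30.8 and 31.1 times the median of the other types, and Slc2a1 made up 98.5% and 100% of the transporter UMIs there. After each cell was thinned to 2000 UMIs, 65.9% (50.1 to 79.5%) and 74.5% (61.0 to 85.3%) of perineurial-like cells held a Slc2a1 UMI, against 0.706% and 0.505% of myofibre-like cells. The unthinned shares were 82.0% and 87.7% in perineurial-like cells and 0.840% and 0.428% in myofibre-like cells. Median depths were 5591 and 3627 UMIs in perineurial-like cells and 2385 and 1841 UMIs in myofibre-like cells, and thinning left out 6 and 10 of the first and 289 and 269 of the second.

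Slc2a3 encodes GLUT3, a transporter of high affinity known from neurons and white blood cells. It was highest in neutrophil-like cells, at 644 CPM (601 to 689) in the KO-labelled and 752 CPM (603 to 927) in the WT-labelled library, and 1 cell held 9.44% and 18.2% of those UMIs. Neutrophil-like cells also had Slc2a1, at 255 and 231 CPM, so that both transporters were raised there and Slc2a3 led with 71.7% (69.0 to 74.2%) and 76.5% (67.7 to 83.9%) of the family. Slc2a3 also led in mural-like, myogenic-like and T cell-like cells of both libraries. In FAP-like cells the lead differed, with Slc2a1 at 57.4% (53.8 to 60.9%) in the KO-labelled library and at 37.9% (32.9 to 43.0%) in the WT-labelled library. In tenocyte-like cells the lead went the other way, with Slc2a1 at 41.7% (35.6 to 48.0%) and 53.6% (43.9 to 63.0%).

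Slc2a4 encodes GLUT4, the insulin-responsive transporter of muscle and fat, and it was high in 2 types. In myofibre-like cells it was at 62.8 CPM (133 UMIs, 52.6 to 74.4) in the KO-labelled and 39.5 CPM (40 UMIs, 28.2 to 53.8) in the WT-labelled library, and it made up 93.0% and 90.9% of the family there. Mural-like cells, which wrap the vessels as pericytes or smooth muscle, held 46.1 CPM (538 UMIs, 42.3 to 50.2) and 42.8 CPM (194 UMIs, 37.0 to 49.3). The ratio of Slc2a4 to myofibre markers found in myofibre-like cells, applied to the markers counted in mural-like cells, gives 0.229% and 0.346% of their Slc2a4 UMIs. Macrophage-like cells had 0 of 203 and 0 of 63 transporter UMIs from Slc2a4, which allows shares of up to 1.80% and 5.69%. Every other type but perineurial-like cells lay between 0 and 2.26 CPM, and perineurial-like cells had 6.26 CPM, from 2 UMIs, and 0.

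Hexokinases trap glucose as its phosphate, and their 2 isoforms differed between FAP-like and endothelial-like cells. Hk2, the insulin- and hypoxia-responsive isoform, was highest in FAP-like cells, at 405 CPM (393 to 417) in the KO-labelled and 382 CPM (369 to 396) in the WT-labelled library. It was also raised in macrophage-like cells (139 and 217 CPM), tenocyte-like cells (161 and 134 CPM) and myofibre-like cells (154 and 190 CPM). Endothelial-like cells had 2.68 CPM (104 UMIs, 2.19 to 3.25) and 1.98 CPM (19 UMIs, 1.19 to 3.09), the lowest level of any type in both libraries. Hk1, the isoform of basal metabolism, was highest in endothelial-like cells, at 126 CPM (122 to 129) and 109 CPM (102 to 115), and supplied 97.9% and 98.2% of their hexokinase UMIs.

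The contrast was also seen cell by cell. With cells thinned to 2000 UMIs, a Hk2 UMI was found in 45.3% (42.0 to 48.7%) and 39.0% (36.3 to 41.7%) of FAP-like cells, against 0.330% (0.204 to 0.504%) and 0.437% (0.200 to 0.827%) of endothelial-like cells. Thinning left out 56 and 104 FAP-like cells and 1571 and 1326 endothelial-like cells. The unthinned shares were 72.6% and 54.4% in FAP-like cells and 1.08% and 0.472% in endothelial-like cells, with medians of 10797 and 5533 UMIs in FAP-like and 4209.5 and 2340.0 UMIs in endothelial-like cells. Within FAP-like cells Hk2 was higher where a Pi16 UMI and no Cxcl14 UMI was present (505 and 479 CPM) than where Cxcl14 and no Pi16 was present (356 and 305 CPM). Pi16 and Cxcl14 mark 2 known states of muscle fibroblasts, and both libraries gave this order.

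Gpi1, which makes fructose 6-phosphate, was at 553 and 479 CPM in myofibre-like cells and between 46.5 and 260 CPM elsewhere. Phosphofructokinase 1 is the committed step, and Pfkm, its muscle isoform, made up 99.7% (99.4 to 99.9%) and 99.2% (98.3 to 99.7%) of the family in myofibre-like cells, at 879 and 836 CPM. Pfkp, the platelet isoform, led in each of the other 11 types in both libraries, with shares from 62.8 to 91.3% in the KO-labelled and from 57.1 to 93.5% in the WT-labelled library. Pfkl, the liver isoform, led in no type and had its largest shares in B cell-like cells, at 34.9% of 43 UMIs and 42.9% of 28 UMIs.

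Pfkfb3 and Pfkfb4 encode the enzymes that make and remove fructose 2,6-bisphosphate, the strongest activator of phosphofructokinase 1. Pfkfb3, which drives glycolysis in sprouting endothelium, was at 155 CPM (151 to 159) in endothelial-like cells of the KO-labelled and at 222 CPM (213 to 232) in those of the WT-labelled library. Macrophage-like cells had 178 and 237 CPM and neutrophil-like cells 145 and 128 CPM. Pfkfb4 was highest in neutrophil-like cells, at 122 CPM (158 UMIs) and 120 CPM (14 UMIs), or 9.05 and 9.62 times the median of the other types. The next highest level was that of macrophage-like cells, at 36.7 and 36.8 CPM.

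The lower steps carried the largest counts of the set. In myofibre-like cells Gapdh, which oxidises the triose phosphates, was at 15036.5 CPM (14872 to 15203) in the KO-labelled and 13894.5 CPM (13666 to 14126) in the WT-labelled library. Tpi1, which interconverts the triose phosphates, was at 2128 and 2358 CPM, Pgk1, the first step to yield ATP, at 559 and 567 CPM, and Pkm, which makes pyruvate, at 1528 and 1263 CPM. Among the other types Gapdh ranged from 198 to 1444 CPM and from 236 to 744 CPM, highest in neutrophil-like cells. The genome holds many processed copies of Gapdh and further copies of Tpi1, Pgk1, Pgam1 and Ldha, and the counts do not show how reads shared with them were handled. The 3' method tags each transcript once near its end, so these counts were compared between genes without division by length.

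Phosphoglycerate mutase and enolase, like phosphofructokinase 1, had another leading isoform in myofibre-like cells than in the other 11 types. Pgam2, the muscle mutase, was at 2983 and 3315 CPM in myofibre-like cells, with 99.6% and 99.7% of the family, whereas Pgam1 led in the other 11 types in both libraries. Eno3, the muscle enolase, was at 7598 CPM (7481 to 7717) and 7120 CPM (6956 to 7286) in myofibre-like cells, 99.7% and 99.6% of the family. Eno1, the widespread enolase, led in the other 11 types, with shares from 62.9 to 97.0% in the KO-labelled and from 55.9 to 96.7% in the WT-labelled library. Eno1b, a gene nearly identical to Eno1, was counted apart at 0 to 9.23 CPM, and reads shared between them are uncertain. The highest Eno1 levels were in neutrophil-like cells, at 302 and 171 CPM.

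Eno3 and Pgam2 outside myofibres were set against the myofibre markers counted in the same cells. The 8 myofibre markers, among them the actin gene Acta1 and the creatine kinase gene Ckm, were found in every other type, except that 1 of the 8 was at 0 in perineurial-like and B cell-like cells of both libraries and in T cell-like cells of the WT-labelled library. Outside myofibre-like cells their summed level ranged from 115 to 605 CPM in the KO-labelled and from 217 to 769 CPM in the WT-labelled library, against 158196 and 149488 CPM in myofibre-like cells. Myofibre-like cells had 48.0 and 47.6 Eno3 UMIs per 1000 marker UMIs. FAP-like cells had 41.9 and 45.0, mural-like cells 54.4 and 55.6, endothelial-like cells 40.1 and 39.7, and glial-like cells 63.7 and 53.4. Pgam2 gave 18.9 and 22.2 per 1000 in myofibre-like cells and 18.2 and 15.4 in endothelial-like cells. In FAP-like and endothelial-like cells Eno3 was thus no higher per marker UMI than in myofibre-like cells, while mural-like and glial-like cells had higher ratios than myofibre-like cells. Smooth muscle-like cells had a ratio of 86.0 and 78.3 per 1000. Eno3 was at 4.01 to 39.3 CPM outside myofibre-like cells, and the part of myofibre RNA in those levels was not tested. Macrophage-like cells of the KO-labelled library had 152 per 1000, from 39 Eno3 UMIs, against 56.4 in the WT-labelled library. For Hk2, the ratio of myofibre-like cells applied to the markers counted in FAP-like cells gives 0.0893% and 0.136% of their Hk2 UMIs.

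**Figure D2:**
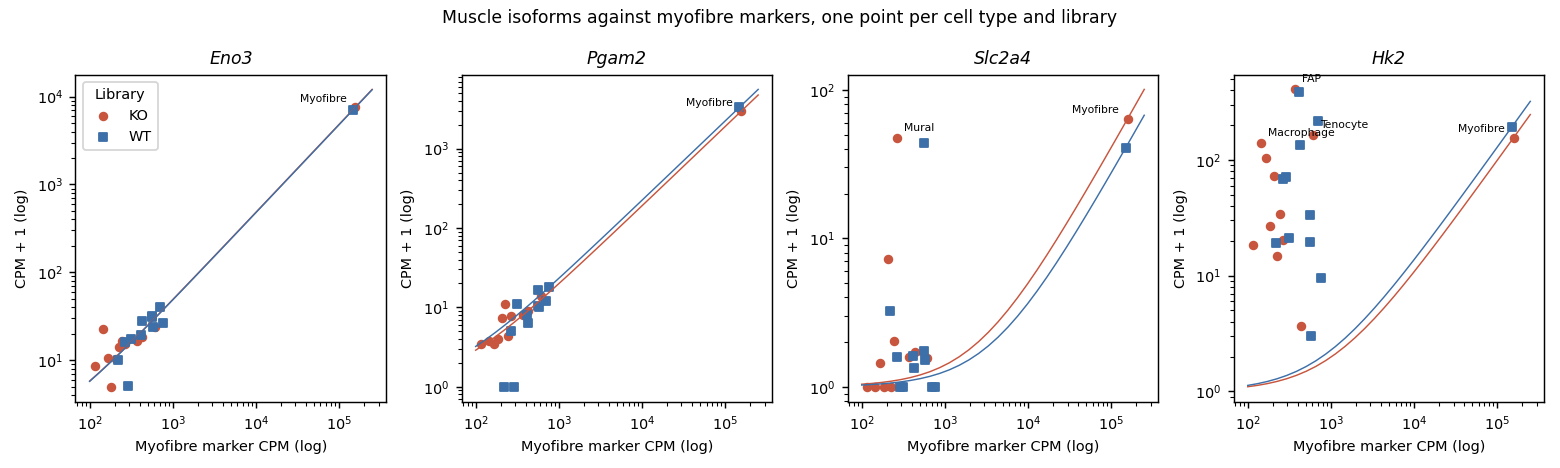
Level of Eno3, Pgam2, Slc2a4 and Hk2 (CPM + 1, log axis) against the summed level of the 8 myofibre markers (CPM, log axis), 1 point per cell type and library; the lines show the ratio found in myofibre-like cells of each library. Eno3 and Pgam2 lie near the lines in FAP-like and endothelial-like cells. Other types scatter more, such as macrophage-like cells of the KO-labelled library, where Eno3 lies above its line. Slc2a4 of mural-like cells (46.1 and 42.8 CPM) and Hk2 of FAP-like cells (405 and 382 CPM) lie far above the lines.

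Lactate dehydrogenase is built from A chains, encoded by Ldha and suited to making lactate, and B chains, encoded by Ldhb and suited to using it. Ldha was highest in myofibre-like cells, at 3427 and 2913 CPM, and elsewhere ranged from 135 to 311 CPM in the KO-labelled and from 98.2 to 282 CPM in the WT-labelled library. Ldhb was high in fewer types. It was at 139 CPM (128 to 151) and 199 CPM (176 to 224) in glial-like cells, at 116 CPM (37 UMIs, 81.5 to 160) and 246 CPM (60 UMIs, 187 to 316) in perineurial-like cells, and at 54.6 and 89.9 CPM in mural-like cells. The other 9 types lay at 12.6 CPM or less in the KO-labelled and 15.5 CPM or less in the WT-labelled library. In perineurial-like cells of the KO-labelled library 1 cell held 24.3% of the Ldhb UMIs.

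Ldhb accordingly took a large share of the family in the nerve. It was 48.6% (45.7 to 51.6%) in glial-like cells of the KO-labelled and 60.8% (56.1 to 65.3%) in those of the WT-labelled library. The shares were 38.5% (28.8 to 49.0%) and 71.4% (60.5 to 80.8%) in perineurial-like cells, and 21.7% (20.2 to 23.2%) and 33.4% (30.8 to 36.2%) in mural-like cells. Endothelial-like cells had 1.41% and 2.06% and myofibre-like cells 0.165% and 0.102%. With cells thinned to 2000 UMIs, 22.4% (19.2 to 26.0%) and 28.8% (23.9 to 34.1%) of glial-like cells held an Ldhb UMI, against 0.676% and 0.873% of endothelial-like cells. The unthinned shares were 44.9% and 40.0% in glial-like cells, of median depth 5528 and 2988 UMIs, and 1.60% and 1.30% in endothelial-like cells.

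The promoters of the 2 chains are shown because they differ in how many HIF-1 core letters they hold. Both windows run from 250 bases before to 50 bases after the RefSeq start on GRCm38.p6. Capitals mark ACGTG or GCGTG read on either strand, and the palindrome CACGTG holds ACGTG on both strands and counts 2 times. The Ldha window with the most cores of the 2 starts listed (chr7:46845554-46845853, + strand) held 7 cores and the Ldhb window (chr6:142507908-142508207, - strand) held 1.
Ldha: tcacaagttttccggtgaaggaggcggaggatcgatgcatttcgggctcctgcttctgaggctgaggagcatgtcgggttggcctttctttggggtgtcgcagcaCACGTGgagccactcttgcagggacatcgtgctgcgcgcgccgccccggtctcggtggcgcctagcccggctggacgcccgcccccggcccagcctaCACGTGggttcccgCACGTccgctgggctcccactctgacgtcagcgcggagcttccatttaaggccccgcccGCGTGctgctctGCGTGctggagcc
Ldhb: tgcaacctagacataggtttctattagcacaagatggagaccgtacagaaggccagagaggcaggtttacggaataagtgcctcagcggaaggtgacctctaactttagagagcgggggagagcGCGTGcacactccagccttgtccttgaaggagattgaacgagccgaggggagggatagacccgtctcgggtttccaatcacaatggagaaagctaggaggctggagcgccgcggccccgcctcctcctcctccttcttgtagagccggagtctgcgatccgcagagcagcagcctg
Windows were listed for 29 of the 31 members, all but Slc2a3 and Slc2a4. ACGTG was present for 18 of them (62.1%), against 21.8% of the 27025 genes with a window, and GCGTG for 19 (65.5%), against 35.2%. At least 1 core was present for 26 (89.7%), against 46.7%, and the 3 without one were Gpi1, Pgam2 and Tpi1. Each gene was counted by its fullest window. Windows were not matched for base composition, and a run of letters is not a bound site. The members were chosen by name as genes of glucose use and the oxygen response, so these shares are not a result about these cells.

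Lactate leaves and enters cells through the monocarboxylate transporters, and they too were split by type. Slc16a3 encodes MCT4, known for lactate export from glycolytic cells, and was at 1079.7 CPM (1024 to 1138) in neutrophil-like cells of the KO-labelled library and at 607 CPM (71 UMIs, 474 to 766) in those of the WT-labelled library, with 99.7% and 100% of the family. It was also raised in macrophage-like cells (129 and 29.1 CPM) and in myofibre-like cells, where it took 89.8% and 84.4% of the family. Slc16a1 encodes MCT1, which carries lactate in either direction. It was highest in tenocyte-like cells of the KO-labelled library, at 199 CPM (184 to 214), against 115 CPM (103 to 128) in the WT-labelled library, and was at 185 CPM (141 to 238) and 168 CPM (120 to 228) in perineurial-like cells. Slc16a1 led in 8 types of both libraries and supplied 99.5% and 98.0% of the family in glial-like cells, which are known to pass lactate to axons.

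Pyruvate dehydrogenase kinases also differed by type. Pdk4, induced by fasting and fatty acids, was highest in myofibre-like cells, at 530 CPM (500 to 562) and 368 CPM (331 to 407). It was raised in myogenic-like cells, which include the satellite stem cells, at 262 CPM (247 to 278) and 203 CPM (183 to 226), and in glial-like cells, at 84.9 and 56.9 CPM. In myogenic-like cells Pdk4 was 96.1% and 92.4% of the family. Pdk2, a widely used kinase, was at 323 and 277 CPM in myofibre-like cells and at 15.9 CPM or less elsewhere. Pdk1, a HIF-1 target, was highest in perineurial-like cells, at 56.3 CPM (18 UMIs, 33.4 to 89.0) and 168 CPM (41 UMIs, 120 to 228). T cell-like cells held no Pdk4 UMI among 33 and 12 kinase UMIs, which allows shares of up to 10.6 and 26.5%.

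**Figure D3:**
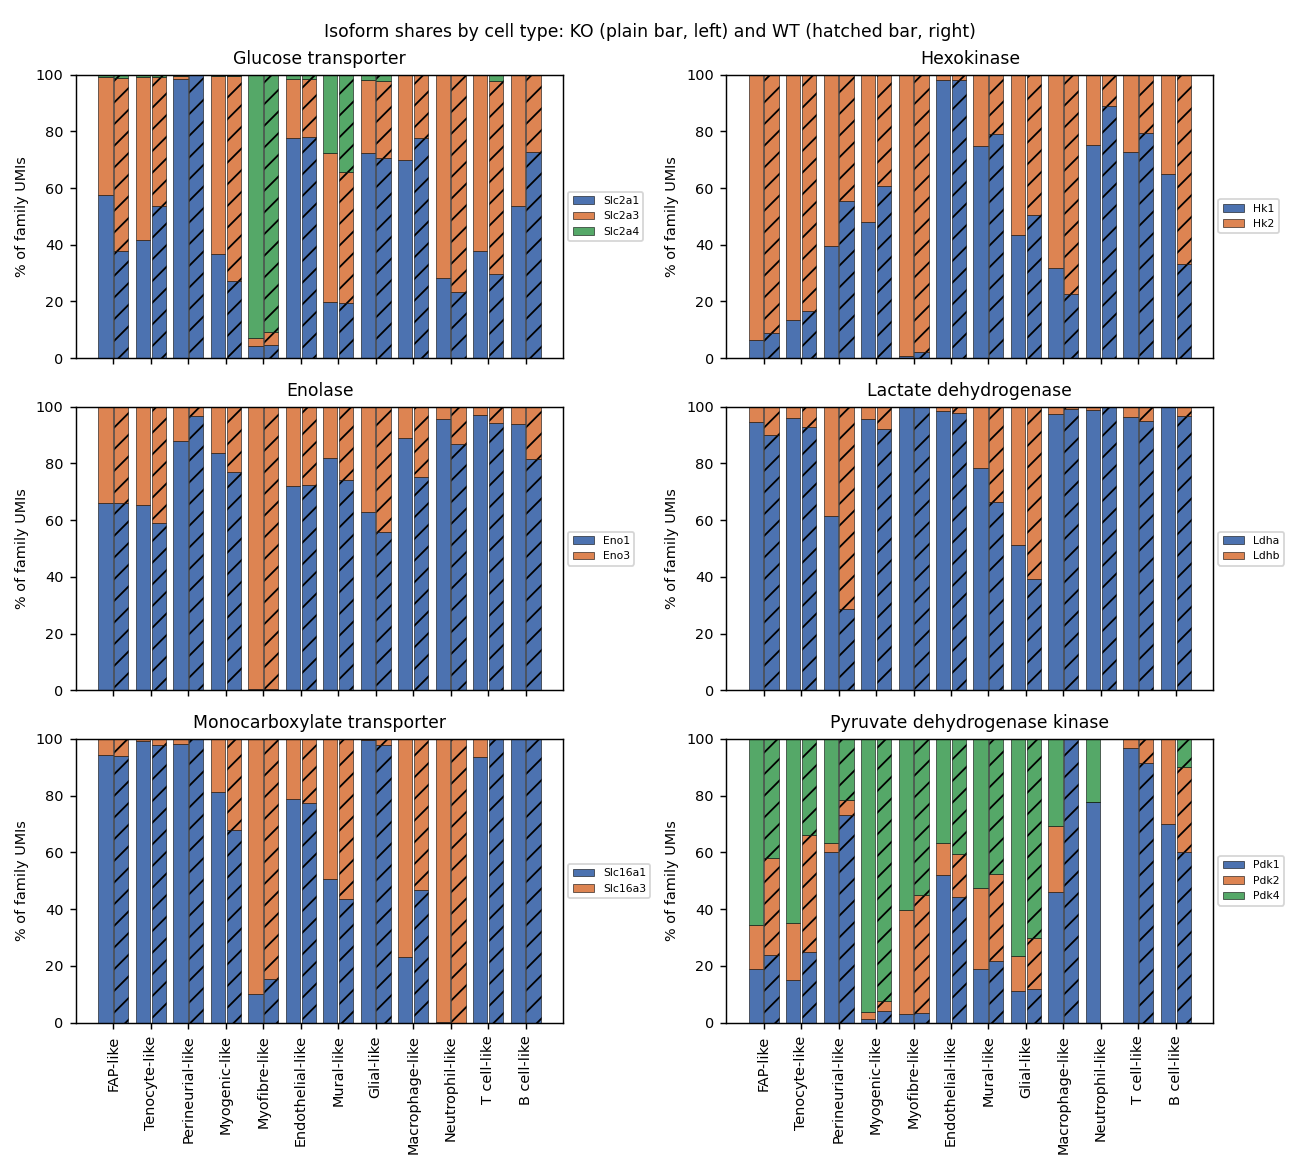
Share of each isoform in the UMIs of its family (0 to 100%) by cell type, KO-labelled library as the plain bar on the left and WT-labelled library as the hatched bar on the right of each pair. Slc2a4 and Eno3 fill the myofibre-like bars, Hk1 fills the endothelial-like bars (97.9 and 98.2%), and Ldhb is large in glial-like, perineurial-like and mural-like cells; the missing bar is neutrophil-like cells of the WT-labelled library, which held no UMI of the 3 pyruvate dehydrogenase kinases.

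Over the 8 isoform families and 12 types, the leading isoform was the same in both libraries for 85 of 96 pairs. Enolase, phosphofructokinase 1 and phosphoglycerate mutase had the same lead in all 12 types. Hexokinase had it in 8, with Hk2 at 52.1% and 39.3% in myogenic-like cells and at 56.5% and 49.4% in glial-like cells. Lactate dehydrogenase and the glucose transporters had it in 10 each, the kinases in 10 and the monocarboxylate transporters in 11.

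Of the 4 oxygen response genes, Hif1a, which encodes HIF-1 alpha, was highest in neutrophil-like cells, at 930 CPM (879 to 984) in the KO-labelled and 650 CPM (512 to 813) in the WT-labelled library. It was lowest in myofibre-like cells, at 21.2 and 19.8 CPM, where 9 of the 19 enzymes were highest. Epas1, which encodes the related HIF-2 alpha and is not a member, was at 1007 and 1039 CPM in endothelial-like cells and 553 and 549 CPM in mural-like cells, and at no more than 84.5 CPM elsewhere. Egln1, the main oxygen sensor, was at 257 and 227 CPM in myofibre-like cells and from 8.55 to 73.7 CPM elsewhere. Egln3, a hydroxylase that is itself induced by HIF, was raised in neutrophil-like cells (29.2 and 51.3 CPM, from 38 and 6 UMIs) and T cell-like cells (26.0 and 27.1 CPM), but 1 T cell-like cell held 34.6% and 33.3% of those UMIs. Bnip3, a mitophagy receptor under HIF-1, was at 371 and 364 CPM in myofibre-like cells and 87.3 and 67.9 CPM in endothelial-like cells, with 77.7 and 120 CPM (101 and 14 UMIs) in neutrophil-like cells.

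Within types, some members followed subtypes of vessel and nerve. Hif1a was at 606 CPM (573 to 639) in venous endothelial-like cells of the KO-labelled library and at 428 CPM (384 to 476) in those of the WT-labelled library, against 118 and 108 CPM in capillary and 131 and 137 CPM in arterial ones. Venous cells also had more Slc2a1 (71.3 and 74.7 CPM) than capillary cells (32.2 and 28.8 CPM), and more Egln3 (22.5 and 37.4 CPM, against 1.86 and 2.83 CPM). Slc16a1 was higher in capillary cells, at 54.5 CPM (51.6 to 57.5) and 34.0 CPM (28.7 to 40.0), against 6.79 and 3.92 CPM in arterial cells. All these orders held in both libraries and lay outside the counting intervals.

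Mural-like cells showed a further split of hexokinase and Hif1a. Smooth muscle-like cells had 45.6 and 33.0 CPM of Hk2 against 3.18 and 8.13 CPM in pericyte-like cells, and 300 and 297 CPM of Hif1a against 116 and 157 CPM. Pericyte-like cells had more Ldhb, at 68.9 and 133 CPM, against 51.8 and 75.9 CPM in smooth muscle-like cells. In the nerve, myelinating glial-like cells had 415 CPM of Ldhb (338 to 503) and 566 CPM (452 to 699), above the 123 and 158 CPM of non-myelinating ones, while Aldoc was at 13.3 and 18.2 CPM in non-myelinating cells. Myelinating cells held no Aldoc UMI, but with 59 and 53 cells a count of 0 allows up to 12.2 and 19.96 CPM, taken as 3 counts of the total.

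**Figure D4:**
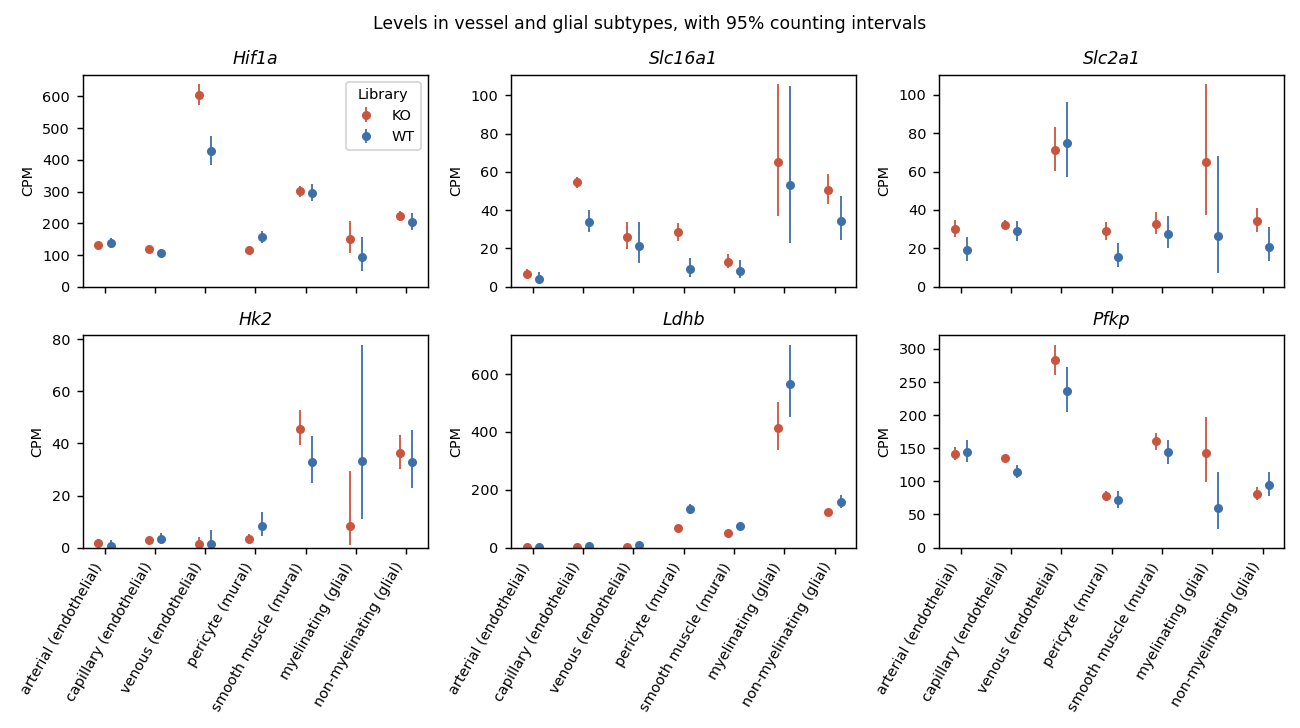
CPM of 6 members in endothelial, mural and glial subtypes, KO-labelled library left of WT-labelled library at each position, with bars for 95% counting intervals. Hif1a is highest in venous cells (606 and 428 CPM), Slc16a1 is higher in capillary than in arterial cells, and Ldhb is highest in myelinating glial-like cells (415 and 566 CPM).

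The second comparison set the KO-labelled against the WT-labelled library within each of the 9 types with at least 100 cells in both. A gene was compared at 20 CPM or more in 1 library and 100 UMIs or more over both, and was called when the levels were at least 1.5-fold apart. A value of 1 CPM was added before ratios were taken, so log2 ratios of low genes are understated, and the intervals were computed without it. Over 160 member and type pairs compared, 25 were higher and 4 lower in the KO-labelled library. Of all genes compared, 2.47 to 13.8% were higher and 4.03 to 11.9% lower, depending on the type. In at least 1 type 12 members were higher and 3 were lower, with Hk2 on both sides, and 28 members could be compared. No share of all genes is given for these last counts, so they are not read as a result about the members. Fewer transcripts per cell and a different mix of cells within a type cannot be told apart in such sums, and all 9 comparisons rest on the same pair of libraries.

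FAP-like cells had 5 of 18 members higher and none lower, while 12.2% of all genes compared were higher and 11.9% lower. The median log2 ratio was 0.22 over the members and 0.02 over all genes. Slc16a1 was furthest apart, at 106 CPM (99.4 to 112) in the KO-labelled and 35.8 CPM (31.8 to 40.2) in the WT-labelled library, with a log2 ratio of 1.53 (1.37 to 1.75). Slc2a1 was at 42.4 and 17.6 CPM, with a log2 ratio of 1.22 (0.99 to 1.55). The other 3 belong to the lower path: Pgk1 at 70.4 and 40.9 CPM (0.77, and 0.43 with cells thinned to 2000 UMIs), Pgam1 at 85.0 and 51.5 CPM (0.71) and Ldha at 217 and 140 CPM (0.63). Hk2, the most typical FAP-like member, was nearly level, with a log2 ratio of 0.08 (0.02 to 0.15). No single cell held more than 5.63% of the UMIs of any of these 5 genes in either library. Neutrophil markers, summed over 8 genes, were at 31.1 CPM, with none of the 8 at 0, and 12.1 CPM, with 4 at 0, in these cells, and markers of red cells at 107 and 13.7 CPM. Neutrophil-like cells themselves held 3.08 and 0 CPM of Slc16a1, but 255 and 231 CPM of Slc2a1 and 199 and 103 CPM of Pgk1. The part of neutrophil and red cell RNA in these 5 ratios was not tested. F2rl1, which encodes a protease-activated receptor, had no UMI in 736 of 932 KO-labelled and 1373 of 1392 WT-labelled FAP-like cells. Among those cells, an alternative chosen after seeing the data, the log2 ratios were 1.28 for Slc16a1, 1.28 for Slc2a1, 0.70 for Pgk1, 0.60 for Pgam1 and 0.59 for Ldha. Lack of an F2rl1 UMI also depends on depth, with medians of 10797 and 5533 UMIs over all FAP-like cells. This choice therefore does not fully set apart cells that express F2rl1.

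Slc16a1 and Pgk1 were also given for the 2 states of FAP-like cells. Cells with a Cxcl14 UMI and no Pi16 UMI had 102 and 28.4 CPM of Slc16a1 and 78.0 and 36.5 CPM of Pgk1. Cells with a Pi16 UMI and no Cxcl14 UMI had 121 and 54.7 CPM of Slc16a1 and 56.2 and 49.3 CPM of Pgk1. The difference between the states was not tested. With cells thinned to 2000 UMIs, 16.3% (13.9 to 18.9%) and 5.36% (4.19 to 6.73%) of FAP-like cells held a Slc16a1 UMI, and the unthinned shares were 46.8% and 15.2%. Median depths were 10797 and 5533 UMIs. Neutrophil-like cells, with medians of 5034.5 and 2179 UMIs, gave 0.885% and 0% unthinned and no such cell among 217 and 32 thinned ones, which allows up to 1.69% and 10.9%.

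Slc16a1 was the member called most often. It was higher in 5 of the 6 types where it could be compared: FAP-like cells, tenocyte-like cells (199 and 115 CPM, 0.78), myogenic-like cells (98.2 and 46.8 CPM, 1.05), mural-like cells (24.3 and 11.5 CPM, 1.02) and endothelial-like cells (40.5 and 23.0 CPM, 0.79). In glial-like cells it was at 51.9 and 36.4 CPM, with a log2 ratio of 0.50 (0.06 to 0.99) that stayed under the fold used. Pgam1 was higher in 4 of 8 types and Pgk1 and Slc2a1 in 3 each. Ldha had a positive ratio in all 9 types, from 0.12 to 0.63, and was called in FAP-like cells alone. Pfkfb3 had a negative ratio in all 7 types where it was compared, from -0.52 in endothelial-like to -0.19 in myogenic-like cells, and was called in none. Of all genes, 47.5 to 61.6% had a positive ratio, depending on the type. The types share the same pair of libraries, so equal signs across them are not repeats.

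The promoters of Slc16a1 and Pgk1 are shown as those of a transporter and an enzyme that were called together in FAP-like and tenocyte-like cells. Pgam1 was called in both types too, and its window, not shown, held 3 cores. Windows and capitals are as for the lactate dehydrogenase genes, from RefSeq on GRCm38.p6. The Slc16a1 window (chr3:104638414-104638713, + strand) held 5 cores, among them 1 palindrome, and the Pgk1 window (chrX:106186850-106187149, + strand) held 2.
Slc16a1: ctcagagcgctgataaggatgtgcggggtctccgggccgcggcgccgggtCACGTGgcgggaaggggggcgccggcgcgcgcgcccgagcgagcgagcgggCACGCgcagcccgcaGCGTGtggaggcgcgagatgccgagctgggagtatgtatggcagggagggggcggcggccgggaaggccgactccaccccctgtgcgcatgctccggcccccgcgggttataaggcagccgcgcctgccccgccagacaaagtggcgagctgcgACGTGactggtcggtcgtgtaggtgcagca
Pgk1: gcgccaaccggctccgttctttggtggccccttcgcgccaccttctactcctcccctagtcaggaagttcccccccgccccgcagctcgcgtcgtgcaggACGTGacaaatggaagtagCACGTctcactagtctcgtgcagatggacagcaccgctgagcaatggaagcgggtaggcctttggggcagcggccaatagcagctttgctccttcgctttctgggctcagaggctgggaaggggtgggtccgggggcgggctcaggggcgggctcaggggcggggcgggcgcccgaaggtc
Ldha, with 7 cores in its fullest window, had a log2 ratio of 0.63 in FAP-like cells. Whether the number of cores bears on the ratios was not tested.

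**Figure D5:**
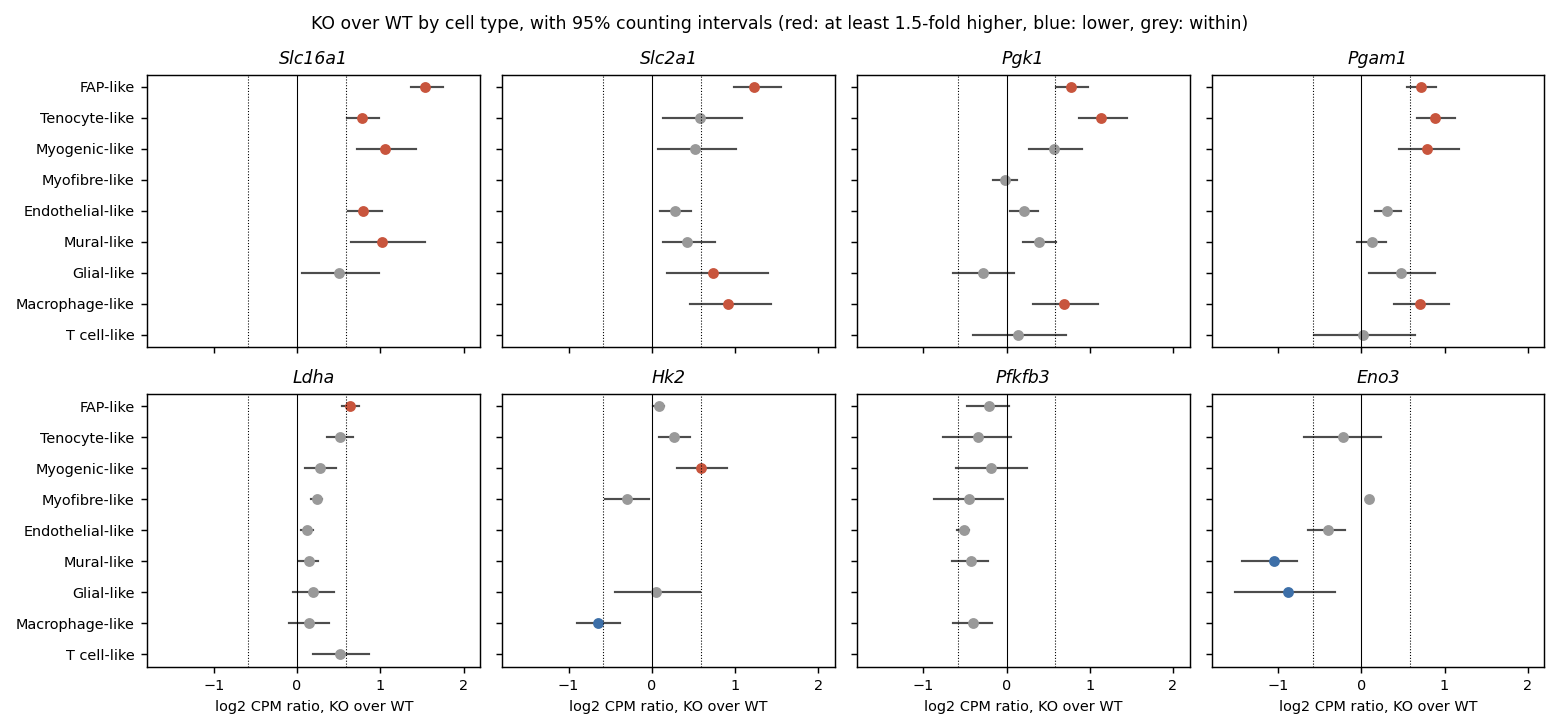
Log2 ratio of CPM, KO-labelled over WT-labelled library, for 8 members in the types where each could be compared, with 95% counting intervals; red points are at least 1.5-fold higher, blue points at least 1.5-fold lower, and dotted lines mark 1.5-fold. Slc16a1 lies to the right in every type shown, Pfkfb3 lies to the left in every type shown, and Hk2 lies on both sides.

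Tenocyte-like cells had 4 of 19 members higher and none lower, against 11.6% and 9.94% of all genes. They were Slc2a3 (42.2 and 17.1 CPM, log2 ratio 1.26, 0.84 to 1.79), Pgk1 (104 and 46.6 CPM, 1.14), Pgam1 (145 and 77.8 CPM, 0.89, and 0.34 with cells thinned to 2000 UMIs) and Slc16a1. Myogenic-like cells had 3 of 19 higher and none lower, against 12.6% and 9.95%: Slc16a1, Pgam1 (80.4 and 46.2 CPM, 0.79) and Hk2 (103 and 67.6 CPM, 0.60). Under alternative processing Pgam1 fell under 1.5-fold in 2 of 13 settings (lowest 0.50) and Hk2 in 3 of 14 (lowest 0.54). The medians over the members were 0.16 and 0.03, against 0.05 for all genes in both types. Markers of neutrophils, summed over 8 genes, were at 14.2 and 1.01 CPM in tenocyte-like cells and at 15.5 and 1.73 CPM in myogenic-like cells, with 1 and 5 of the 8 at 0 in tenocyte-like and 1 and 6 in myogenic-like cells, and their part in these ratios was not tested.

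Myofibre-like cells had 1 of 17 members higher, Slc2a4 (log2 ratio 0.65, 0.15 to 1.22), and none lower, against 6.33% and 5.11% of all genes. This call was lost in 2 of 13 alternative settings (lowest 0.56). Markers of mural cells, the other type high in Slc2a4, were at 135 CPM, 1 of 8 at 0, and 69.2 CPM, 3 of 8 at 0, in myofibre-like cells, and markers of red cells at 156 and 6.92 CPM, and their part in this ratio was not tested. The main muscle isoforms differed less: Eno3 had a log2 ratio of 0.09, Pgam2 of -0.15, Pfkm of 0.07, Gapdh of 0.11 and Ldha of 0.23. Pdk4, at 530 and 368 CPM, had 0.53 (0.36 to 0.70). Endothelial-like cells also had 1 of 18 higher, Slc16a1, and none lower, against 2.47% and 5.47%. Capillary cells, whose Slc16a1 levels are given above beside the lower arterial ones, were 5620 of 7932 and 1846 of 3387 endothelial-like cells. Neutrophil markers were at 52.4 CPM, none of 8 at 0, and 5.63 CPM, 3 of 8 at 0, in endothelial-like cells. Red cell markers were at 192 and 49.9 CPM. The part of the subtype mix and of these markers in the Slc16a1 ratio was not tested. In both types the members' medians, 0.11 and 0.07, lay close to those of all genes, -0.02 and 0.01.

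Mural-like cells had 4 of 23 members higher and 2 lower, against 3.07% and 5.39% of all genes. The higher ones were Slc16a1, Bnip3 (24.5 and 13.9 CPM, 0.78), Slc16a3 (23.6 and 14.8 CPM, 0.64) and Slc2a3 (88.4 and 57.6 CPM, 0.61). Of these calls Slc16a3 and Slc2a3 were each lost in 4 of 13 alternative settings (lowest 0.31 and 0.49) and Bnip3 in 1 (0.53). In mural-like cells endothelial markers were at 451 and 281 CPM, none of 8 at 0 in either library. Neutrophil markers were at 16.6 CPM, none of 8 at 0, and 3.31 CPM, 2 of 8 at 0, there. Red cell markers were at 76.6 CPM, 1 of 8 at 0, and 20.1 CPM, 2 of 8 at 0. The part of these markers' source cells in the 4 higher ratios was not tested. Ldhb was lower, at 54.6 and 89.9 CPM, with a log2 ratio of -0.71 (-0.90 to -0.54). Eno3 was also lower, at 14.5 and 31.1 CPM (-1.05, and -0.23 with doublet calls kept), beside summed myofibre markers at 267 and 560 CPM, none of the 8 at 0, in the same cells. Glial-like cells had 1 of 19 higher, Slc2a1 (35.8 and 21.1 CPM, 0.73, and 0.56 with a pseudocount of 10 CPM), and 1 lower, Eno3 (15.8 and 29.9 CPM, -0.88, and 0.30 after the myofibre profile was subtracted), against 4.44% and 4.03%. Their myofibre markers were at 247 and 560 CPM, none of the 8 at 0, and Ldhb had a log2 ratio of -0.51 (-0.73 to -0.30) there. The members' medians were 0.01 in mural-like and -0.03 in glial-like cells, against 0.01 and 0.03 for all genes.

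Macrophage-like cells had 6 of 17 members higher and 1 lower, against 13.8% and 7.78% of all genes. Slc16a3 was furthest apart, at 129 CPM (112 to 146) and 29.1 CPM (20.1 to 40.6), a log2 ratio of 2.11 (1.62 to 2.71). Pkm was at 386 and 201 CPM (0.94), Slc2a1 at 80.1 and 41.9 CPM (0.92, and 1.73 with cells thinned to 2000 UMIs), Hif1a at 320 and 191 CPM (0.75, and 0.32 under a stricter marker rule), Pgam1 at 155 and 94.1 CPM (0.71) and Pgk1 at 111 and 68.4 CPM (0.69). Hk2 was lower, at 139 CPM (122 to 157) and 217 CPM (191 to 246), a log2 ratio of -0.64 (-0.91 to -0.39), and of -0.45 under the stricter marker rule. The macrophage markers themselves, summed over 8 genes, were at 4891 and 8782 CPM, the neutrophil markers at 152 CPM, 1 of 8 at 0, and 96.6 CPM, 4 of 8 at 0, and the myofibre markers at 145 and 697 CPM, none at 0. Their part in these differences was not tested. The median over the members was 0.29, against 0.13 for all genes. T cell-like cells had 0 of 10 members called in either direction, against 7.42% and 4.20% of all genes. Neutrophil-like, perineurial-like and B cell-like cells were not compared because a library held under 100 of them.

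Other genes of the same paths were counted beside the members. Of 25 further genes of glycolysis and glucose entry, 48 gene and type pairs could be compared, with 7 higher and 4 lower. Among all genes 2.47 to 13.8% were higher and 4.03 to 11.9% lower, depending on the type, so no count in these lists is read as a result about its list. Pgm2, of the phosphoglucomutase family, was called in 3 types, FAP-like (41.9 and 23.8 CPM, log2 ratio 0.79), tenocyte-like (68.8 and 33.2 CPM, 1.03) and myogenic-like cells (78.7 and 52.0 CPM, 0.59). Aldoa, the main muscle aldolase, was at 18049 and 17680 CPM in myofibre-like cells and was called in none of 9 types. Of 24 other hypoxia response genes 23 were matched by name, and 12 of 110 pairs were higher and 3 lower. Ero1a, an oxidase of the endoplasmic reticulum, was higher in tenocyte-like (0.60), macrophage-like (0.74) and T cell-like cells (0.65), and Vegfa, the vessel growth factor, was higher in tenocyte-like cells (54.1 and 31.8 CPM, 0.75) among 6 types. Genes that bring pyruvate into mitochondria had 2 of 55 pairs higher and 0 lower, and pentose phosphate genes 3 of 28 higher and 2 lower.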

How the data were processed

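Single-cell RNA was captured by the 10x 3' method from 1 library per genotype. The deposited matrices hold raw UMI counts per gene and barcode, made with Cell Ranger 9.0.0 and the mm10 build per the submitters' processing notes, while the file headers name 9.0.0 for the KO-labelled and 8.0.0 for the WT-labelled library. Totals and medians per library stand in the report. Barcodes under 500 genes or over 10% mitochondrial UMIs were dropped, and the rest kept after removal of Scrublet doublet calls (30 components, scanpy 1.11.5). A type needed at least 3 of 8 marker genes detected and at least 2 times as many as any other list. Myofibre-like cells needed at least 5% of UMIs from their 8 markers and under 3 detected markers of any other type. These thresholds were set after the data were seen. Counts were summed per type and library and divided by the summed total, as CPM (scaled to 1000000). Intervals are 95%, exact Poisson for levels (a count of 0 is given a limit of 3 counts), Clopper-Pearson for shares and exact conditional binomial for ratios, and they cover counting error only. Ratios used a pseudocount of 1 CPM. No p-value was computed.

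Tested on simulated counts for the FAP-like comparison (6779 genes, 200 changed), the calls found 100% of the 2-fold and 100% of the 3-fold changes. The intervals held 94% of the true ratios of the 200 changed genes. Both simulated libraries were drawn from the same pooled profile with counting error alone. Differences between libraries or cells beyond that error were therefore not covered. All 31 members were named, and of the other lists the genes called the same way in at least 3 types, plus Aldoa, Epas1 and Vegfa. Members, lists and rules were chosen with earlier results of these data known. Alternatives varied the cell filter, doublet removal, typing, scaling (TMM, edgeR 4.0.16), depth, floors and pseudocount. Promoter windows came from RefSeq on GRCm38.p6. Python 3.11.15 and R 4.3.3 were used.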

Additional observations from a re-analysis of the deposited data

Results flagged for a closer look

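Hk2 moved in opposite directions in 2 types. Its log2 ratio, KO-labelled over WT-labelled library, was 0.60 in myogenic-like cells, with 103 and 67.6 CPM, and -0.64 in macrophage-like cells, with 139 and 217 CPM. With 1 library per genotype the difference was not tested. The myogenic-like ratio lay between 0.54 and 0.73 and the macrophage-like ratio between -0.71 and -0.45 under the alternatives, so the direction of each was kept in all of them while either could fall under 1.5-fold.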

How the results depend on the processing

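Of the 29 pairs of member and type at least 1.5-fold apart, 16 stayed past that fold under every alternative that gave a ratio, and 1 changed sign. Each pair had a ratio in 13 or 14 alternatives, because the floor of 100 CPM left some pairs out. Under the other alternatives a ratio was taken whether or not the pair still met the floors. Eno3 in glial-like cells had a log2 ratio of 0.30 once the myofibre profile was subtracted. That ratio rests on the counts left after subtraction, which were not held to the floors. The 25 higher pairs numbered 11 with a floor of 100 CPM, where fewer genes are compared, and 19 to 29 otherwise. The 4 lower pairs numbered 2 with doublet calls kept, 7 with cells thinned to 2000 UMIs, 2 with the myofibre profile subtracted, 8 with no floor and 1 with a floor of 100 CPM, and the cause was not tested for the first 3. The 5 higher members of FAP-like cells numbered 2 with a floor of 100 CPM and 4 to 6 otherwise. Slc16a1 in FAP-like cells ranged from 1.28 to 1.63. The 36 pairs raised over other types numbered 24 to 38, and the same isoform led in 85 to 87 of 96 pairs. Leaving out FAP-like cells with an F2rl1 UMI, or barcodes under 2500 UMIs, was chosen after seeing the data, and each gave 26 higher pairs, with 4 and 3 lower ones. Perineurial-like values rest on 50 and 65 cells, and neutrophil-like values of the WT-labelled library on 54. No paired analysis was possible because each genotype has 1 library.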

Other observations

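Further genes of sugar and oxygen metabolism differed in single types and are given as values, chosen after their values were seen and with no replicate check. In macrophage-like cells 3 of the 5 pentose phosphate genes compared were higher in the KO-labelled library and none lower, against 13.8% and 7.78% of all genes. They were Taldo1, which encodes transaldolase, at 301 and 137 CPM (log2 ratio 1.13, 0.88 to 1.40), G6pdx, which encodes the first enzyme of the path, at 79.0 and 41.1 CPM (0.93), and Pgd, of its oxidative branch, at 133 and 71.8 CPM (0.87). Ndrg1, a hypoxia-induced gene, was at 87.5 and 16.2 CPM in the same cells (2.36), and Emb, which encodes a partner protein of monocarboxylate transporters, at 582 and 231 CPM (1.33).

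In myofibre-like cells Ddit4, a stress-induced inhibitor of mTOR signalling, was at 283 CPM in the KO-labelled and 52.4 CPM in the WT-labelled library, a log2 ratio of 2.41 (2.03 to 2.87). Bsg, which encodes basigin, the partner of MCT1 and MCT4, was at 769 and 447 CPM there (0.78). Ndufa4l2, a hypoxia-induced mitochondrial gene, was lower in tenocyte-like cells, at 33.1 and 75.4 CPM (-1.16), and in FAP-like cells, at 25.9 and 46.3 CPM (-0.82).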
